A study of Homo sapiens with 46 samples.

Results

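Cells that line a surface and cells of connective tissue differ in a well-known set of genes, and 10 of these were followed through the series. They were taken by name, as the rows of the gene count tables that carry their symbols and the splicing events assigned to them, 10 of the 60668 gene identifiers in the tables. On the epithelial side stood MARVELD2 and OCLN (membrane proteins of the tight junction), CDH1 (E-cadherin, the adhesion receptor of the adherens junction), EPCAM (an adhesion molecule of epithelia) and ELF3 (an epithelial transcription factor of the ETS family). On the mesenchymal side stood CDH2 (N-cadherin), VIM (vimentin, an intermediate filament protein), and the transcription factors ZEB1, ZEB2 and SNAI2.

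The series set ASO-1570, an antisense oligonucleotide that targets the TRA2B transcript, against the control oligonucleotide ASO-CTL in cultured cells and in a tumour model. The TRA2B protein belongs to the SR-like factors that bind exons and regulate splicing. Cells of the breast cancer line MDA-MB-231 and of the glioblastoma line U87MG were transfected with either oligonucleotide at 200 nM or at 50 nM. In a further experiment both lines were transfected with an siRNA against TRA2B (siRNA-TRA2B) or a control siRNA (siRNA-CTL), each at 10 nM. RNA was taken after 48 hours, and each of these 12 groups held 3 libraries. All transfected groups, controls included, received lipofectamine 3000. In the 50 nM and siRNA experiments the MDA-MB-231 libraries are labelled as glioblastoma by cell type, against their names. A breast cancer patient-derived xenograft (PDX), a single model (JAX TM00096) grown in mice that the labels call immunocompetent, was injected in the tumour with ASO-1570 or ASO-CTL at 50 mg/kg, 3 times a week for 4 weeks, with 5 tumours per group. The ages of the mice were not given. The labels do not say whether the libraries of a cell line group came from separate cultures, so p-values measure the spread between these libraries.

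In the passage from an epithelial to a mesenchymal state, ZEB1, ZEB2 and SNAI2 bind E-box sequences in the promoters of epithelial genes and repress them, CDH1 being the best known target. Cells then lose E-cadherin and tight junctions and gain N-cadherin and vimentin. Carcinoma lines such as MDA-MB-231 can carry genes of both states, whereas glioma cells such as U87MG are not epithelial in origin. ZEB1 and ZEB2 are themselves alternatively spliced.

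The promoters of the epithelial genes that moved under ASO-1570, or that share their junction, are shown first, since the E-box is the sequence through which the 3 repressors act. RefSeq windows (GRCh38.p14) from 250 bases before to 50 bases after a start site were found for 7 of the 10 genes, 15 windows in all. They were searched for the E-box CAGGTG and its reverse complement CACCTG, which are the same site read on the other strand and are in capitals below. The windows of CDH1, EPCAM and SNAI2 were not used here. All lines below run 5′ to 3′ on the plus strand and end 30 bases after the start.
MARVELD2, chr5:69414866-69415145: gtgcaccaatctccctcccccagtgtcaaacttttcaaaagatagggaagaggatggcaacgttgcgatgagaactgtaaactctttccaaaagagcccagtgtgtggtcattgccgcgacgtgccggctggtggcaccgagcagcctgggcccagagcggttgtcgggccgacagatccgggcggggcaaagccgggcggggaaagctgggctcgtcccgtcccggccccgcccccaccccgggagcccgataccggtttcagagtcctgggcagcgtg
OCLN, chr5:69492297-69492576: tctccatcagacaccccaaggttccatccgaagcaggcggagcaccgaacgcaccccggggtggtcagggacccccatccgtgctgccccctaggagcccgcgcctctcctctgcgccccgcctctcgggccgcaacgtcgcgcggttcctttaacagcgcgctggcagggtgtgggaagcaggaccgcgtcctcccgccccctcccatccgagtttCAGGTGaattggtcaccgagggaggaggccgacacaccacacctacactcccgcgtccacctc
ELF3, chr1:202010337-202010616: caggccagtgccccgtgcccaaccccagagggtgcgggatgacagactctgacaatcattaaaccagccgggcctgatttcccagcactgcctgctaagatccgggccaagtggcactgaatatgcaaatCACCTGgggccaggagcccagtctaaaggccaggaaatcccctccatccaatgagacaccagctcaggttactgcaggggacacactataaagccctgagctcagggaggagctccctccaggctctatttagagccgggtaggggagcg
The ELF3 window held 1 E-box, 120 bases before the start, and the OCLN window held 1, 33 bases before the start. The MARVELD2 window held none. A second OCLN window and 2 of the 7 ZEB1 windows also held the motif, and those of VIM, CDH2 and ZEB2 held none. Of all 35116 promoter windows of this length, 20.6% held it.

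Alternative exons of ZEB1 and ZEB2 whose inclusion is reported further on are the other sequences shown here. TRA2B is known to bind AGAA within GAA-rich stretches of exons, so each GAA is in capitals. Exons are given by their position in the deposited event names (GRCh38), with sequence from GENCODE v29 transcripts, and letters A to D are used for them from here on.
ZEB1 exon A, chr10:31387720-31387798, plus strand: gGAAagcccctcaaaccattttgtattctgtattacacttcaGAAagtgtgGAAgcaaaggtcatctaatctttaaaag
ZEB2 exon B, coding bases only, chr2:144517278-144517350, minus strand: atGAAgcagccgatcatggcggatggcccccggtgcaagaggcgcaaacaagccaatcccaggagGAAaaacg
ZEB2 exon C, chr2:144424796-144424864, minus strand: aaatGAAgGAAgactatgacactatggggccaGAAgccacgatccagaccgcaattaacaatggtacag
ZEB1 exon D, chr10:31495779-31495838, plus strand: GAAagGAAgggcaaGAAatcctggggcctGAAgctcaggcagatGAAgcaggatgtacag
Exon A has 79 bases, lies in 3 annotated transcripts, none of them coding, and holds 3 GAA and 1 AGAA. Exon B has 142 bases (chr2:144517278-144517419), lies in 28 transcripts, is coding in 24 of them and holds 4 GAA over its whole length and no AGAA. Exons C and D have 69 and 60 bases, both divisible by 3 and both coding in at least 1 transcript, with 3 and 5 GAA and 1 AGAA each. Over the 111654 cassette exons of the tables with an annotated sequence, 88.2% held GAA and 59.5% held AGAA, so these motifs are common.

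To 4 significant digits, libraries of the 200 nM experiment held 259900000 to 356800000 counts, those of the 50 nM experiment 78560000 to 112800000, those of the siRNA experiment 74980000 to 111100000 and those of the PDX 75340000 to 109600000. Levels are given as counts per 1000000 counts of the library (CPM) after TMM scaling, and log2 changes as treated minus control from edgeR, called at a Benjamini-Hochberg adjusted p below 0.05 over all genes tested. TRA2B itself fell in all 6 cell line comparisons: with ASO-1570 its log2 change was -0.87 (SE 0.0611) in MDA-MB-231 and -1.03 (SE 0.0613) in U87MG at 200 nM, and -0.76 and -1.13 at 50 nM. With the siRNA it was -3.11 and -2.83, so the siRNA removed more TRA2B RNA than the oligonucleotide. In the PDX it was -0.16 (SE 0.202, edgeR adjusted p = 0.707), so the targeted RNA did not pass the test there. MDA-MB-231 controls carried the keratins KRT8 and KRT18 at 962 ± 45.1 and 550 ± 39.6 CPM (SD, n = 3), against 4.0 ± 0.345 and 0.48 ± 0.0692 in U87MG. The glial marker GFAP was at 0.0839 ± 0.019 CPM in the U87MG controls at 200 nM (1.32 at 50 nM and 1.71 with the siRNA) and at 3.1 ± 0.459 CPM in MDA-MB-231, and S100B was at 0.0647 ± 0.0306 in U87MG, so these glial markers were low in the glioblastoma line. NES, a neural progenitor marker, was at 30.3 ± 0.0797 CPM in U87MG and 22.5 ± 2.79 in MDA-MB-231.

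In the control-transfected libraries the 2 lines differed throughout this gene set. All 10 genes differed between the control libraries of the lines in each of the 3 experiments, where 68.1% (200 nM), 73% (50 nM) and 77.3% (siRNA) of all tested genes differed. The 5 epithelial genes and ZEB1 were higher in MDA-MB-231, and CDH2, VIM, ZEB2 and SNAI2 were higher in U87MG. In the 200 nM controls the log2 difference, MDA-MB-231 minus U87MG, was 7.32 (SE 0.285) for MARVELD2, 6.02 for EPCAM, 4.70 for ELF3 and 4.37 for OCLN, and -5.31 for CDH2, -4.03 for ZEB2, -1.78 for VIM and -1.07 for SNAI2 (edgeR, n = 3 per group, largest adjusted p of the 10 = 8.9e-07). For CDH1 the U87MG controls held 0, 6 and 0 counts, and the fitted difference depended on the setting (8.33 to 13 over the alternatives, and 6.37 and 7.43 in the other experiments), so it is given no place in this order. ZEB1 was 1.16 (SE 0.109) higher in MDA-MB-231, so the 2 ZEB paralogs stood in opposite order between the lines.

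Levels of different genes were compared per kilobase of annotated exon, in CPM per kb. VIM came first in every control group of the lines, at 478 ± 17.7 in MDA-MB-231 and 1640 ± 35.1 in U87MG in the 200 nM experiment (SD, n = 3). In MDA-MB-231 SNAI2 (13 ± 0.398) and EPCAM (12.5 ± 0.663) followed and lay within their spread of each other, then ZEB1 (7.06 ± 0.467), OCLN (2.59 ± 0.109), MARVELD2 (1.42 ± 0.198) and ELF3 (1.17 ± 0.0935). CDH1 (0.553 ± 0.0549), ZEB2 (0.468 ± 0.0431) and CDH2 (0.308 ± 0.0287) came last. In U87MG SNAI2 (27.3 ± 1.07), CDH2 (12.2 ± 0.455), ZEB2 (7.66 ± 0.386) and ZEB1 (3.16 ± 0.2) came next after VIM. The epithelial genes ran from EPCAM at 0.192 ± 0.0278 down to MARVELD2 at 0.00888 ± 0.00216 and CDH1 at 0.0011 ± 0.00191. In the PDX controls EPCAM came first (208 ± 58.8, n = 5), then VIM (67.6 ± 22.7), CDH1 (35.4 ± 20.6) and ELF3 (7.76 ± 1.0), and SNAI2 had no counts.

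**Figure D1:**
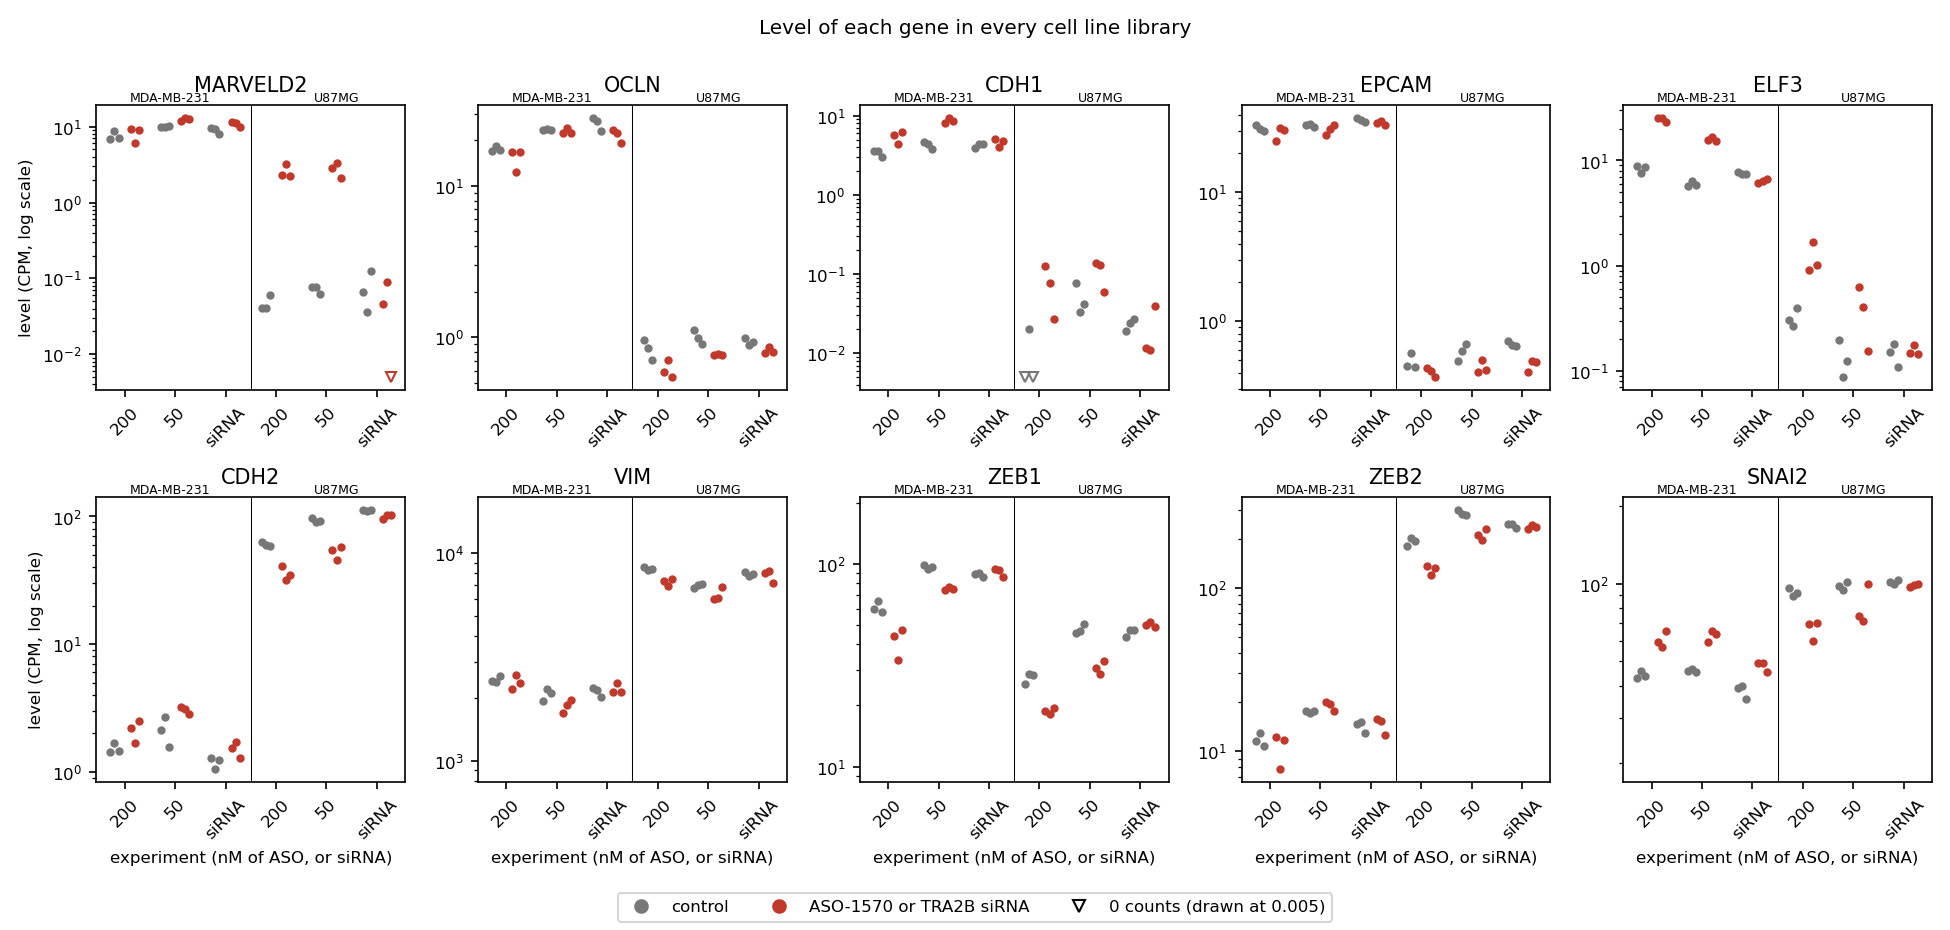
Level of each of the 10 genes in the 36 cell line libraries, in CPM on a log axis, by experiment and line; each point is 1 library, grey for control and red for ASO-1570 or siRNA-TRA2B, and triangles mark 0 counts. MARVELD2 in U87MG sits below 0.1 CPM in the controls of both ASO experiments and above 2 CPM in every ASO-1570 library, while its siRNA libraries stay low.

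ASO-1570 changed most of the 10 genes in U87MG and about 4 to 5 of them in MDA-MB-231. The 10 genes were chosen with earlier results of these data known. Their counts beside the shares of all genes are therefore a description and no independent test of an excess. At 200 nM, 4 of 10 were called in MDA-MB-231 (3 higher, 1 lower), where 25.2% of all genes tested were called, 11.7% higher and 13.6% lower. In U87MG 9 of 10 were called (3 higher, 6 lower), where 49.7% were called, 25.8% higher and 23.9% lower. At 50 nM, 5 of 10 were called in MDA-MB-231 (4 higher, 1 lower) against 23.3% of all genes (10.1% higher, 13.2% lower). In U87MG 8 of 10 were called (3 higher, 5 lower) against 54.6% (27.9% higher, 26.7% lower). In MDA-MB-231 at 50 nM, 2 of the 5 epithelial genes were higher and none lower, and 2 of the 5 mesenchymal genes were higher and 1 lower. At 200 nM in that line, 1 of the 5 epithelial genes was higher and none lower, and 2 of the 5 mesenchymal genes were higher and 1 lower. In U87MG 3 of 5 epithelial genes rose at each dose, and 1 fell at 200 nM and 2 at 50 nM. All 5 mesenchymal genes fell at 200 nM and 3 of 5 at 50 nM. CDH1 is among the 3 and passed the filter on low counts in U87MG only in the fit that includes MDA-MB-231, where it is higher, so the epithelial count and its median are no support for a direction. The median log2 change of the 5 mesenchymal genes in U87MG was -0.55 at 200 nM and -0.44 at 50 nM, where the median of all genes was 0.0203 and 0.00316. With the siRNA, 1 of 10 genes was called in each line, against 7.24% of all genes in MDA-MB-231 (3.65% higher, 3.6% lower) and 4.2% in U87MG (1.6% higher, 2.6% lower). In these bulk samples, fewer cells of a type and less RNA per cell cannot be told apart.

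**Figure D2:**
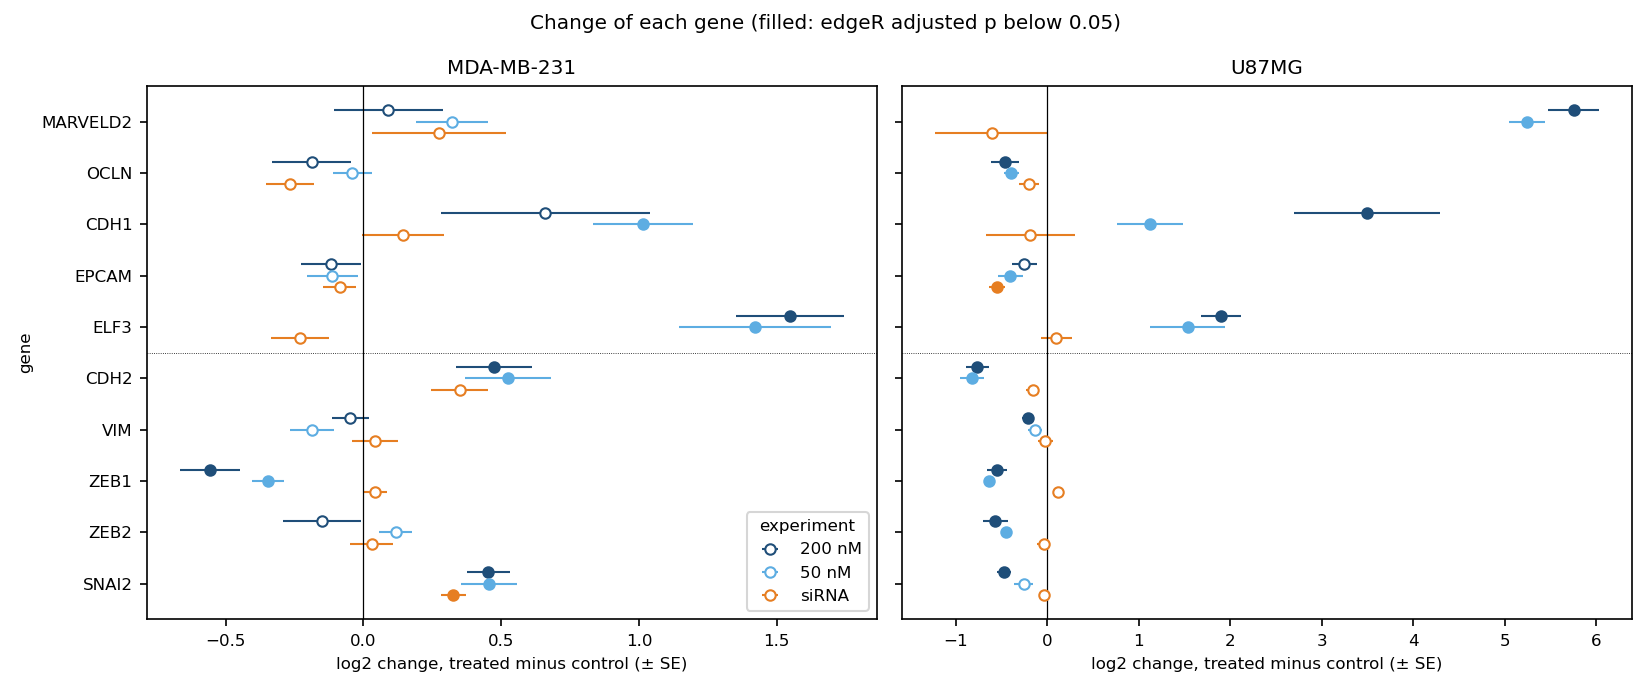
Log2 change of each gene, treated minus control, with its SE, in MDA-MB-231 (left) and U87MG (right), for the 200 nM, 50 nM and siRNA experiments; filled points passed edgeR at an adjusted p below 0.05, and the 2 panels have different scales. In U87MG the MARVELD2 points for ASO-1570 lie above 5, the 5 mesenchymal genes below the dotted line lie at or left of 0 with ASO-1570, and in MDA-MB-231 CDH2 and SNAI2 lie to the right.

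MARVELD2 encodes tricellulin, which seals tight junctions where 3 cells meet. In U87MG it was barely present in controls, at 0.0411, 0.0408 and 0.061 CPM (14, 12 and 18 counts), and reached 2.28, 3.26 and 2.2 CPM (778, 1114 and 657 counts) with 200 nM ASO-1570. Every treated library lay far above every control. This was a log2 change of 5.75 (SE 0.275, 54-fold, edgeR adjusted p = 1.66e-07, n = 3 per group), the 272nd largest rise among 26159 tested genes. At 50 nM it went from 0.0768, 0.0767 and 0.0628 CPM to 2.82, 3.36 and 2.13 CPM, a log2 change of 5.24 (SE 0.199, 37.9-fold, adjusted p = 6.47e-08) and the 124th largest of 23989. All 6 treated U87MG libraries of the 2 doses lay between 2.13 and 3.36 CPM. The doses come from separate experiments and were not compared by a test.

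Tested genes with a U87MG control mean below 0.1 CPM were also counted. Of these, 30.4% (2263 of 7447) rose at 200 nM and 39.1% (1375 of 3519) at 50 nM. In MDA-MB-231 the shares were 8% and 7.77%. Such genes pass the filter on low counts more readily when they are high in treated libraries or in the other line. These shares are therefore no measure of how often nearly silent genes rise. The RNA of MARVELD2 in MDA-MB-231 was higher from the start and did not pass the test: it went from 6.89, 8.84 and 7.14 CPM to 9.32, 6.09 and 8.94 CPM at 200 nM (log2 change 0.09, SE 0.197, edgeR adjusted p = 0.806). With 50 nM it went from 9.87, 9.95 and 10.3 CPM to 11.9, 13.2 and 12.6 CPM (0.32, SE 0.131, adjusted p = 0.0999), with no overlap between the groups. With siRNA-TRA2B the U87MG level stayed at 0 to 0.0892 CPM, where controls were at 0.0358 to 0.123 CPM (log2 change -0.60, SE 0.618, adjusted p = 0.695).

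MARVELD2 lies on chromosome 5 (69415065 to 69444330, plus strand, GENCODE v29 on GRCh38, as for all genes below) and overlaps no annotated gene. The gene before it on the same strand, RAD17, a DNA damage checkpoint gene, ends 263 bases before the annotated start of MARVELD2. RAD17 fell in the same comparisons, with log2 changes of -0.86 (SE 0.103) in U87MG at 200 nM and -0.84 (SE 0.0578) at 50 nM, and -0.58 and -0.38 in MDA-MB-231. With the siRNA it was -0.08 and -0.01, neither called by edgeR (adjusted p = 0.321 and 0.966). Whether the 2 neighbours moved for a shared reason was not tested.

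OCLN (chromosome 5, 69492292 to 69558104, plus strand) encodes occludin, the other tight junction membrane protein in the set, and went the other way in U87MG. Its controls at 200 nM were at 0.966, 0.854 and 0.711 CPM and its treated libraries at 0.589, 0.705 and 0.547 CPM, with the highest treated library just below the lowest control. OCLN fell by 0.46 on the log2 scale (SE 0.157, edgeR adjusted p = 0.0279), and at 50 nM, from 1.12, 0.997 and 0.91 to 0.765, 0.773 and 0.769 CPM, it fell by 0.39 (SE 0.0863, adjusted p = 0.00743). The 200 nM call was lost without either of 2 control or either of 2 treated libraries (replicates 1 and 2, and 1 and 3), or when only these 2 groups were fitted, with adjusted p-values up to 0.118. The 50 nM call was lost without control replicate 1 or with only the 2 groups (up to 0.062). In MDA-MB-231 OCLN, at 12.3 to 28.2 CPM over all libraries with control means above treated means in all 3 experiments, was not called (adjusted p = 0.377, 0.762 and 0.0954). Parts of the OCLN gene have a near-identical copy on the same chromosome, so its counts are uncertain, and the antisense gene AC145146.1 overlaps its start.

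CDH1 (chromosome 16, 68737225 to 68835548, plus strand) was present in MDA-MB-231 at a low level and rose at 50 nM. Its controls were at 4.59, 4.42 and 3.8 CPM and its treated libraries at 7.97, 9.46 and 8.46 CPM, with every treated library above every control (log2 change 1.01, SE 0.182, 2.02-fold, edgeR adjusted p = 0.00209). At 200 nM it went from 3.62, 3.61 and 3.03 CPM to 5.71, 4.34 and 6.16 CPM. These groups did not overlap either, but the log2 change of 0.66 (SE 0.379) had an adjusted p of 0.229. In U87MG CDH1 rested on very few counts: 0, 6 and 0 in the 200 nM controls against 43, 26 and 8 with ASO-1570 (adjusted p = 0.00291, with a fitted log2 change of 3.50 that became 7.58 without control replicate 2), and 7, 3 and 4 against 13, 13 and 5 at 50 nM, where the groups overlapped (adjusted p = 0.0209). The 50 nM call was lost under 5 of 10 alternatives, among them leaving out treated replicate 1 or 2 or control replicate 2 or 3, with adjusted p-values up to 0.105. All 12 of these U87MG libraries lay below 0.139 CPM, less than the lowest MDA-MB-231 library by an order of magnitude.

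EPCAM (chromosome 2, 47345158 to 47387601, plus strand) did not rise with ASO-1570 in any comparison. In MDA-MB-231 all 18 libraries lay between 24.9 and 37.9 CPM and no change was called (edgeR adjusted p = 0.485, 0.442 and 0.464). In U87MG it went from 0.446, 0.565 and 0.44 CPM to 0.437, 0.413 and 0.369 CPM at 200 nM, just without overlap (log2 change -0.25, SE 0.133, adjusted p = 0.143). In the 50 nM experiment it fell by 0.40 (SE 0.133, adjusted p = 0.0376), from 0.494, 0.592 and 0.669 to 0.404, 0.502 and 0.421 CPM, with overlap, a call lost without treated replicate 1, control replicate 2 or 3, or with only the 2 groups (adjusted p up to 0.2). It was the 1 called gene of the set with siRNA-TRA2B in U87MG, where 0.7, 0.656 and 0.644 CPM became 0.404, 0.491 and 0.48 CPM (fell by 0.54, SE 0.0871, adjusted p = 0.0374). That call was lost without any 1 of its 6 libraries, with adjusted p-values up to 0.194 over all alternatives.

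ELF3 (chromosome 1, 202007945 to 202017188, plus strand) rose in both lines at both doses. At 200 nM it went from 8.95, 7.66 and 8.65 CPM to 25.5, 25.3 and 23.1 CPM in MDA-MB-231 (log2 change 1.55, SE 0.195, edgeR adjusted p = 0.000233). In U87MG it went from 0.308, 0.269 and 0.393 CPM to 0.917, 1.69 and 1.02 CPM (1.90, SE 0.219, 3.74-fold, adjusted p = 2.14e-05). In both lines every treated library was above every control. At 50 nM, MDA-MB-231 went from 5.73, 6.32 and 5.81 CPM to 15.7, 16.9 and 15.3 CPM (1.42, SE 0.276, 2.68-fold, adjusted p = 0.0034). U87MG at 50 nM spread widely, from 0.197, 0.0876 and 0.126 CPM to 0.627, 0.402 and 0.156 CPM (1.54, SE 0.41, adjusted p = 0.0076), and 1 treated library lay within the controls. These levels rest on few counts, 8 to 18 in the controls and 13 to 59 in the treated libraries. With the siRNA the MDA-MB-231 libraries went the other way without overlap, from 7.78, 7.36 and 7.51 CPM to 6.14, 6.44 and 6.73 CPM, and did not pass the test (-0.23, SE 0.104, adjusted p = 0.229). In U87MG the siRNA groups overlapped (0.10, adjusted p = 0.933). The antisense gene ELF3-AS1 overlaps the start of ELF3, and the strand setting of the counting was not stated.

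CDH2 (chromosome 18, 27950966 to 28177446, minus strand) moved in opposite directions in the 2 lines. In U87MG, where it is abundant, it went from 63.1, 59.5 and 59 CPM to 40.8, 31.6 and 34.7 CPM at 200 nM and fell by 0.76 on the log2 scale (SE 0.13, edgeR adjusted p = 0.000392). At the lower dose, 50 nM, it went from 96.6, 90.1 and 92.9 CPM to 54.6, 45.7 and 58.1 CPM and fell by 0.82 (SE 0.134, adjusted p = 0.000312). All treated libraries lay below all controls at both doses. In MDA-MB-231, where it is scarce, it rose from 1.43, 1.69 and 1.46 CPM to 2.19, 1.67 and 2.5 CPM at 200 nM, with 1 treated library among the controls (0.47, SE 0.139, adjusted p = 0.0263). At 50 nM it rose from 2.13, 2.67 and 1.56 CPM to 3.24, 3.1 and 2.85 CPM (0.53, SE 0.155, adjusted p = 0.0297). The 200 nM call in MDA-MB-231 was lost without control replicate 1 or 3, without treated replicate 1 or 3, or with only the 2 groups (adjusted p-values up to 0.097). The 50 nM call there was lost without control replicate 1 or 3, without treated replicate 1 or 2, with only the 2 groups or with no filter on low counts (up to 0.0998). With the siRNA neither line passed (0.35, adjusted p = 0.0639, in MDA-MB-231, and -0.16, adjusted p = 0.277, in U87MG).

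VIM (chromosome 10, 17228259 to 17237593, plus strand), the most abundant RNA of the set per kilobase in the lines, changed little. The largest difference was in U87MG at 200 nM, from 8629, 8267 and 8425 CPM to 7387, 6931 and 7546 CPM, without overlap, and it fell by 0.21 (SE 0.0679, edgeR adjusted p = 0.0208). That call was lost without treated replicate 2 or control replicate 1 (adjusted p up to 0.0782). In the other 5 cell line comparisons the log2 change lay between -0.19 and 0.04 and the groups overlapped. VIM-AS1 overlaps VIM on the opposite strand.

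ZEB1 (chromosome 10, 31318495 to 31529814, plus strand) was the only gene of the 10 called lower in both lines at both doses, and it kept that call under all 11 alternatives tried in each of the 4 comparisons. In MDA-MB-231 it went from 60, 65.5 and 57.7 CPM to 44.1, 33.6 and 46.8 CPM at 200 nM (fell by 0.56, SE 0.108, edgeR adjusted p = 0.00304). With 50 nM it went from 98, 93.9 and 95.7 CPM to 74.4, 76.6 and 75.2 CPM (fell by 0.35, SE 0.0569, adjusted p = 0.00125). In U87MG it went from 25.4, 28.4 and 28.3 CPM to 18.7, 18.2 and 19.3 CPM at 200 nM (fell by 0.55, SE 0.108, adjusted p = 0.00112). In the 50 nM experiment it went from 45.6, 46.7 and 50.3 CPM to 30.4, 28.5 and 33.3 CPM (fell by 0.63, SE 0.0576, adjusted p = 4.97e-06). No treated library reached its controls in any of the 4. With siRNA-TRA2B the level in MDA-MB-231 was 88.8, 89.7 and 86.1 CPM in controls and 93.8, 93.1 and 85.6 CPM in treated libraries (log2 change 0.04, SE 0.045, adjusted p = 0.674). In U87MG it was 43.2, 47.3 and 46.9 CPM against 49.6, 51.5 and 48.5 CPM (0.12, SE 0.0455, adjusted p = 0.172). ZEB1 was thus called lower with ASO-1570 and not with the siRNA. These are separate experiments with controls of their own. Neither the difference between them nor the part of TRA2B in the change of ZEB1 was tested.

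ZEB2 (chromosome 2, 144364364 to 144524583, minus strand), the paralog of ZEB1, fell in U87MG and was not called in MDA-MB-231. It went from 182, 201 and 193 CPM to 136, 120 and 133 CPM at 200 nM (fell by 0.57, SE 0.139, edgeR adjusted p = 0.00475). At the lower dose, 50 nM, it went from 301, 285 and 281 CPM to 212, 196 and 229 CPM (fell by 0.44, SE 0.0587, adjusted p = 6.67e-05). The MDA-MB-231 level was 11.5, 12.9 and 10.8 CPM in controls and 12.2, 7.75 and 11.7 CPM in treated libraries at 200 nM (-0.15, adjusted p = 0.489), and the groups overlapped at 50 nM as well (0.12, adjusted p = 0.203). The 7.75 CPM library, treated replicate 2, was also the lowest of its group for MARVELD2, OCLN, CDH1, CDH2, ZEB1 and SNAI2. With the siRNA the log2 change was 0.03 and -0.04 and no test passed. ZEB1-AS1 and ZEB2-AS1 overlap the 2 genes on the opposite strand.

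SNAI2 encodes Slug, a repressor of CDH1, and like CDH2 it moved apart in the 2 lines. In MDA-MB-231 it went from 43, 45.6 and 43.6 CPM to 59.1, 56.8 and 65.1 CPM at 200 nM (0.45, SE 0.0772, edgeR adjusted p = 0.00145). At 50 nM it went from 45.6, 46.6 and 45.1 CPM to 59.1, 65.6 and 63.8 CPM (0.46, SE 0.102, adjusted p = 0.00747). It was also the 1 called gene with siRNA-TRA2B in MDA-MB-231, where 39.2, 39.8 and 35.5 CPM became 49.1, 49.3 and 45.3 CPM (0.33, SE 0.0457, adjusted p = 0.00135). In all 3 experiments every treated MDA-MB-231 library was above every control. In U87MG it went from 96.5, 89.3 and 91.7 CPM to 69.8, 59.7 and 70.5 CPM at 200 nM (fell by 0.47, SE 0.0771, adjusted p = 0.000289). At 50 nM 1 treated library stayed at the control level (97.6, 94.6 and 101 CPM against 74.8, 71.3 and 100 CPM), and the change of -0.26 (SE 0.102) had an adjusted p of 0.051. With the siRNA it was -0.04 (adjusted p = 0.741). The gene lies on chromosome 8 (48917604 to 48921740, minus strand) and overlaps no other annotated gene.

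The effect of ASO-1570 was then compared between the lines as an interaction, MDA-MB-231 minus U87MG. At 200 nM it differed for 4 of the 10 genes, where 23.6% of all genes differed: MARVELD2 (-5.66, SE 0.338, edgeR adjusted p = 7e-06), CDH1 (-2.84, SE 0.915, adjusted p = 0.0417, on the low U87MG counts given above and lost under 11 of 16 alternatives, with adjusted p up to 0.122), CDH2 (1.24, SE 0.19, adjusted p = 0.000979) and SNAI2 (0.93, SE 0.109, adjusted p = 0.000262). With 50 nM it differed for 6 of 10, where 28.2% differed: MARVELD2, CDH2 and SNAI2 again, ZEB2 (0.56, SE 0.0849, adjusted p = 0.000957), ZEB1 (0.28, SE 0.0808, adjusted p = 0.0225) and OCLN (0.35, SE 0.111, adjusted p = 0.0359). The ZEB1 and OCLN differences were lost under 5 and 7 of 16 alternatives, each of which left out 1 library. For ELF3 the difference was -0.36 (SE 0.288, adjusted p = 0.415) at 200 nM and -0.12 (SE 0.466, adjusted p = 0.917) at 50 nM, which does not show that the lines responded alike. With the siRNA 1 of 10 differed, where 0.527% of all genes did. It was SNAI2 (0.36, SE 0.0642, adjusted p = 0.0376), a call lost under 11 of 16 alternatives, with adjusted p-values from 0.000662 to 0.114.

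Other genes of the 2 states were taken from 6 lists written from general knowledge, with earlier results of these data known. Of 20 tested transcription factors that drive or accompany the mesenchymal state, 1 rose and 13 fell in U87MG at 200 nM, with a median log2 change of -0.64, and 1 rose and 12 fell at 50 nM (-0.33). Among them ID1, an inhibitor of bHLH factors, fell by 1.40 (SE 0.12) at 200 nM, PRRX1, a mesenchymal homeobox factor, fell by 1.25 and 1.07 at the 2 doses, and FOSL1, an AP-1 subunit, by 0.69 and 0.52. In MDA-MB-231 the counts were 3 up and 4 down of 20 at 200 nM and 2 up and 3 down at 50 nM. FOSL1 fell there too, by 0.46 and 0.49, and ID3 rose by 1.15 (SE 0.13) and 0.96. With the siRNA 1 rose and 2 fell in MDA-MB-231 and 1 fell in U87MG, among them HMGA2, a chromatin protein, which fell by 0.17 and 0.19. With ASO-1570 in U87MG, 25.8% of all genes rose and 23.9% fell at 200 nM, and 27.9% and 26.7% at 50 nM. The MDA-MB-231 shares were 11.7% and 13.6% at 200 nM, and 10.1% and 13.2% at 50 nM. With the siRNA they were 3.65% and 3.6% in MDA-MB-231 and 1.6% and 2.6% in U87MG.

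Structural genes of the mesenchymal state also fell more often than they rose with ASO-1570. The counts were 8 against 3 and 10 against 3 of 24 at 200 nM, MDA-MB-231 first. At 50 nM they were 4 against 1 and 11 against 2. Of all genes, 13.6% and 23.9% fell and 11.7% and 25.8% rose at 200 nM, in the same order. At 50 nM 13.2% and 26.7% fell and 10.1% and 27.9% rose. The 4 of 24 in MDA-MB-231 at 50 nM lay near the share of all genes. NT5E, the surface enzyme CD73, fell in both lines (by 1.17 and 0.96 in MDA-MB-231, and by 0.97 in U87MG at 200 nM and 0.99 at 50 nM). MMP14, a membrane protease, fell by 0.70 and 0.66 in MDA-MB-231. TAGLN, a smooth muscle actin-binding protein, rose by 1.45 in U87MG at 200 nM, against the direction of most of its list. With the siRNA the MDA-MB-231 count was 5 up and 1 down, led by SPARC (0.71), LOX (0.96) and FN1 (0.37), which encode matrix proteins and a matrix crosslinking enzyme, and in U87MG 2 fell. At 200 nM the 18 TGF-beta pathway genes had 1 up and 6 down in MDA-MB-231 and 1 up and 7 down in U87MG. At 50 nM the counts were 4 and 4, and 1 and 9. The ligand gene TGFB2 rose in all 6 cell line comparisons, by 0.59 and 0.74 at 200 nM, 0.78 and 0.44 at 50 nM and 0.17 and 0.15 with the siRNA (MDA-MB-231 first), and the receptor gene TGFBR1 fell by 0.71 and 0.43 in MDA-MB-231 at 200 and 50 nM and by 0.48 in U87MG at 50 nM.

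The wider epithelial programme did not rise as a whole. Among the 28 adherens and tight junction genes tested in U87MG at 200 nM, 3 rose and 14 fell (median -0.43). Of 29 at 50 nM, 6 rose and 14 fell (median -0.24). The shares of all genes in U87MG were 25.8% up and 23.9% down at 200 nM, and 27.9% and 26.7% at 50 nM. F11R, the junctional adhesion molecule A, fell by 1.48 and 1.49, and AFDN, afadin, by 0.67 and 0.59. In MDA-MB-231, 1 rose and 8 fell at 200 nM and 6 rose and 6 fell at 50 nM. The shares of all genes in that line were 11.7% up and 13.6% down at 200 nM, and 10.1% and 13.2% at 50 nM. F11R fell there by 0.93 at 200 nM, and CGNL1, a junction adaptor, rose by 1.05 at 50 nM. Desmosome and keratin genes split, with 3 up and 2 down in MDA-MB-231 and 5 up and 4 down in U87MG of 18 at 200 nM. At 50 nM the counts were 2 and 2, and 4 and 4 of 17. These counts lay near the shares of all genes. KRT15 fell in all 4 ASO comparisons, by 0.86 and 0.76 in MDA-MB-231 and by 1.89 and 1.51 in U87MG, while KRT18 rose by 1.77 in U87MG at 200 nM and KRT8 by 0.72 at 50 nM. Of the epithelial transcription and splicing factors, 7 of 19 rose and 3 fell in U87MG at 200 nM and 6 of 17 rose and 3 fell at 50 nM. This list summed to 25.92 to 28.5 CPM in the 200 nM controls of U87MG and to 459.7 to 472.1 CPM in those of MDA-MB-231. Genes scarce in U87MG can pass the filter on low counts through the other line or the treated libraries. These counts are therefore no support for a direction. KLF4, a factor of stratified epithelia, rose by 0.99 and 0.85 and ST14, the protease matriptase, by 2.80 and 2.95 from control means of 0.0479 and 0.0183 CPM, while its inhibitor gene SPINT1 fell by 1.77 and 1.45. In MDA-MB-231 1 rose and 2 fell at each dose: KLF5 rose by 0.43 and 0.51, TFAP2C fell by 0.92 and 0.82, and ESRP1, an epithelial splicing regulator, fell by 1.95 and 1.73 from 0.121 and 0.183 CPM. With the siRNA 4 junction genes rose and 3 fell of 29 in MDA-MB-231, where 3.65% of all genes rose and 3.6% fell.

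**Figure D3:**
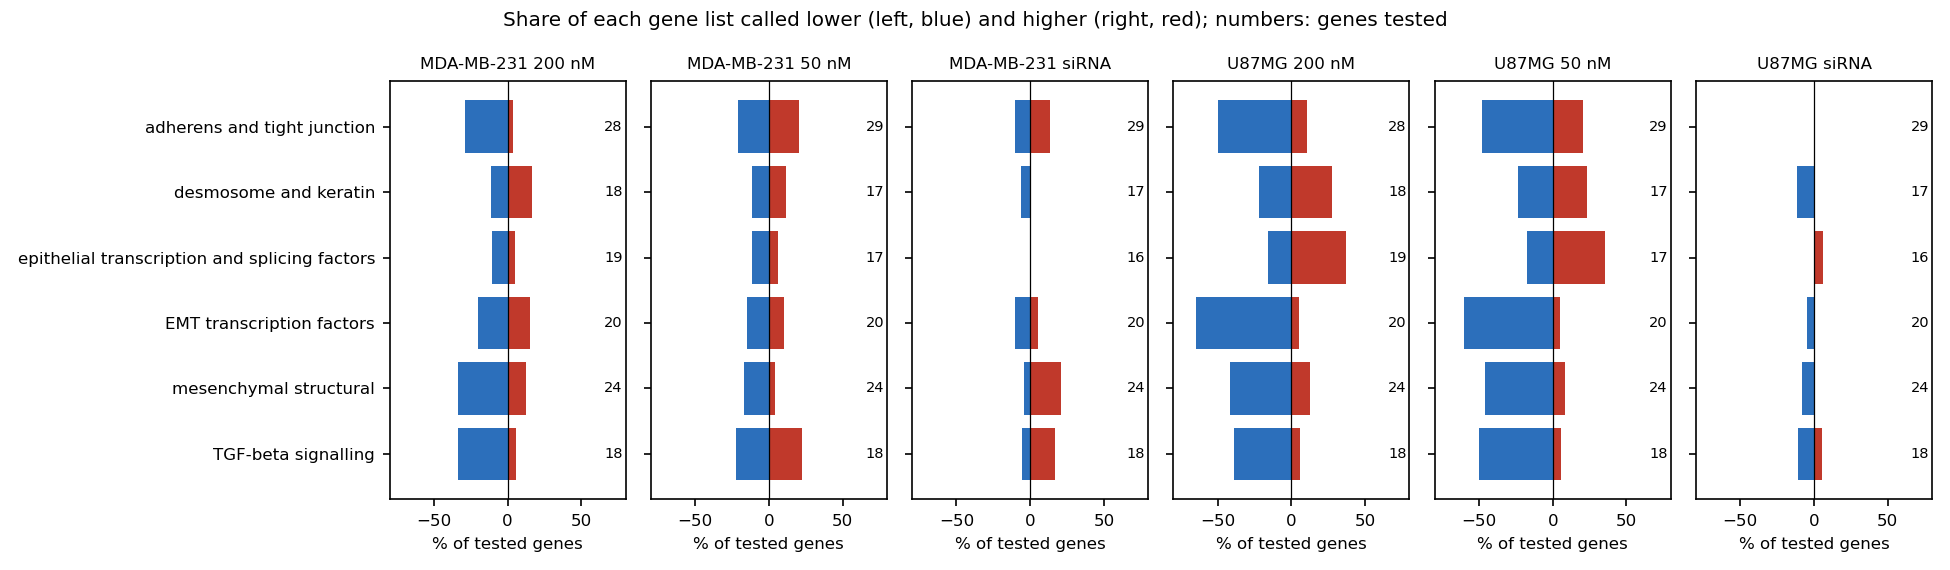
Share of each gene list called higher (red, right) and lower (blue, left) with edgeR in the 6 cell line comparisons, in percent of the genes tested, whose number stands at the right of each bar. In U87MG with ASO-1570 the lists of mesenchymal transcription factors and of junction genes both extend mostly to the left. At 200 nM 13 of 20 and 14 of 28 genes were lower, where 23.9% of all genes were.

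Markers of other cell types moved in U87MG as well, where 25.8% of all genes rose and 23.9% fell at 200 nM (27.9% and 26.7% at 50 nM). Of 7 tested leukocyte markers 4 rose and 2 fell at each dose: CD14, a monocyte receptor, rose by 3.74 from 0.169 CPM at 200 nM and CD79A, a B cell receptor subunit, by 2.96 from 0.17 CPM. Scarce markers can pass the filter on low counts through the treated libraries or the other line, so these counts are no support for a direction. The summed level of that list was 529.7 to 558.7 CPM in the 200 nM controls and 404.8 to 435.6 CPM in treated libraries, most of it from the macrophage marker CD68, which fell by 0.39. Fibroblast markers had 2 up and 5 down of 11 in U87MG at each dose, with summed levels of 2387 to 2573 CPM in the 200 nM controls and 1252 to 1764 CPM in treated libraries. LUM, the matrix proteoglycan lumican, rose with ASO-1570 in both lines at both doses, by 3.35 and 1.70 at 200 nM and 3.15 and 1.40 at 50 nM, MDA-MB-231 first. The part of such genes in the changes of the 10 genes was not tested. EPCAM and KRT8 are abundant in MDA-MB-231. EPCAM was at most 0.437 CPM in the treated U87MG libraries at 200 nM, below its highest control of 0.565 CPM. KRT8 was at 6.38 CPM on average there, above its control mean given earlier, against 1310 CPM in treated MDA-MB-231. KRT18 rose in these U87MG libraries, as given above. Carry-over of RNA between the lines was not tested.

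Over the 36 cell line libraries, each gene's log2 level was taken as a deviation from the mean of its own line's controls. It was set beside that of 12137 genes above a set minimum of mean level. These libraries share their treatments, so such likeness describes a pattern and carries no p-value. MARVELD2 was most like MRPL49 (Pearson r = 0.971) and CDC42EP3 (0.97), ELF3 most like OXTR (0.921) and AOC2 (0.918), and ZEB1 most like CLOCK (0.979) and VKORC1L1 (0.979). CDH2 was most like WWC1 (0.937) and CYTH3 (0.936), SNAI2 most like NIPSNAP3A (0.957) and BDKRB2 (0.94), ZEB2 most like DNAJC6 (0.953) and STAM2 (0.949) and VIM most like WDR54 (0.918) and MT2A (0.91). The likeness was weaker for OCLN (RASSF3, 0.865, and TRIM25, 0.856), CDH1 (LRP2BP, 0.849, and BCLAF1, 0.842) and EPCAM (LRRFIP1, 0.795, and RBM3, 0.761). None of the 10 had another of the 10 among its 2 nearest, but those below that minimum, such as CDH1, could not appear there.

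Splicing of the 10 genes was read from the deposited percent spliced in (PSI), the fraction of transcripts that include an exon or site. The tables held 55 events of these genes in each ASO experiment, 124 in the siRNA experiment and 63 in the PDX, most of them in VIM, ZEB1 and ZEB2 in the lines, 22 of the 63 PDX events in EPCAM, and none in SNAI2. Of the 22, 24, 17 and 17 events that could be tested with ASO-1570 (MDA-MB-231 and U87MG at 200 nM, then at 50 nM), 0, 1, 0 and 1 passed limma at an adjusted p below 0.05 with a PSI change of at least 0.10. Of all events 1.42%, 19.6%, 0.194% and 13.8% passed. With the siRNA none of 25 and 28 events passed, and none of 24 in the PDX, where 0% of all events passed in each (unadjusted p below 0.05 in 3657, 3395 and 2768 events, 0, 1 and 1 of them among these genes). PSI was deposited without its reads, which leaves the depth of every event unknown, and overlapping events share exons. Events of the 10 genes with a mean change of at least 0.10, passing or not, numbered 5, 8, 2 and 9 with ASO-1570, 0 and 10 with the siRNA and 5 in the PDX. With 3 libraries against 3, the exact two-sided permutation test cannot give a p below 0.1, and this was the value for all non-overlapping events named here.

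ZEB1 exon A, the non-coding 79-base exon printed above, was included more with ASO-1570 in U87MG. Its PSI was 0.157, 0.132 and 0.065 in the 200 nM controls and 0.473, 0.329 and 0.68 in the treated libraries, without overlap, a change of 0.376 (limma adjusted p = 0.0293). In the 50 nM experiment it was 0.113, 0.159 and 0.14 against 0.337, 0.489 and 0.234, again without overlap but not called (0.216, adjusted p = 0.0728). With siRNA-TRA2B in U87MG it was 0.036, 0.08 and 0.066 against 0.159, 0.193 and 0.478, also without overlap and not called (0.216, adjusted p = 0.768). The MDA-MB-231 values were 0.077, 0.14 and 0.311 against 0.41, 0.303 and 0.373 at 200 nM (0.186, adjusted p = 0.251), and it differed by 0.0277 at 50 nM and 0.0267 with the siRNA. So all 6 cell line comparisons had a higher mean PSI in the treated group, and 1 of them passed. That call was lost without any 1 of the 3 control libraries, without treated replicate 1, and without the filter on the range of PSI, with adjusted p-values from 0.0165 to 0.093.

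ZEB2 exon B, which is coding in 24 of its 28 annotated transcripts, was included less in U87MG at 50 nM. Its PSI was 0.997, 1 and 0.982 in controls and 0.803, 0.729 and 0.842 in treated libraries, a change of -0.202 (limma adjusted p = 0.0156), with no overlap. The call was lost without any 1 of the control libraries (adjusted p-values from 0.00292 to 0.0717 over the alternatives). The MDA-MB-231 values at 50 nM were 1 in all 3 controls and 0.925, 1 and 1 in treated libraries (-0.025, adjusted p = 0.654). With the siRNA in U87MG PSI was 0.993 in both groups on average. The 200 nM experiment held no values for this event in either line, nor did MDA-MB-231 with the siRNA. ZEB2 exon C was lower in MDA-MB-231 at 50 nM, at 0.777, 0.84 and 0.818 against 0.736, 0.732 and 0.653 without overlap (-0.105, adjusted p = 0.414), and in U87MG at 50 nM it differed by 0.002. At 200 nM it differed by -0.136 in MDA-MB-231, with overlap (adjusted p = 0.552), and by 0.00833 in U87MG. With the siRNA it was higher by 0.0417 in MDA-MB-231, with overlap, and by 0.059 in U87MG, without overlap (adjusted p = 0.849 and 0.768). Another event with this exon and a different neighbouring exon differed by -0.102 in U87MG with the siRNA, with overlap (adjusted p = 0.768). ZEB1 exon D went from 0.977, 0.967 and 0.966 to 0.934, 0.847 and 0.871 in U87MG at 200 nM (-0.086, adjusted p = 0.0556), also below the 0.10 change asked for. Exon D was picked by hand, and other uncalled events changed more in that comparison. A 91-base ZEB1 exon changed by 0.492, from 0 in every control and without overlap (limma adjusted p = 0.164). With overlap, a 56-base ZEB1 exon changed by 0.398 (adjusted p = 0.305) and a 177-base ZEB2 exon by -0.325 (adjusted p = 0.325).

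**Figure D4:**
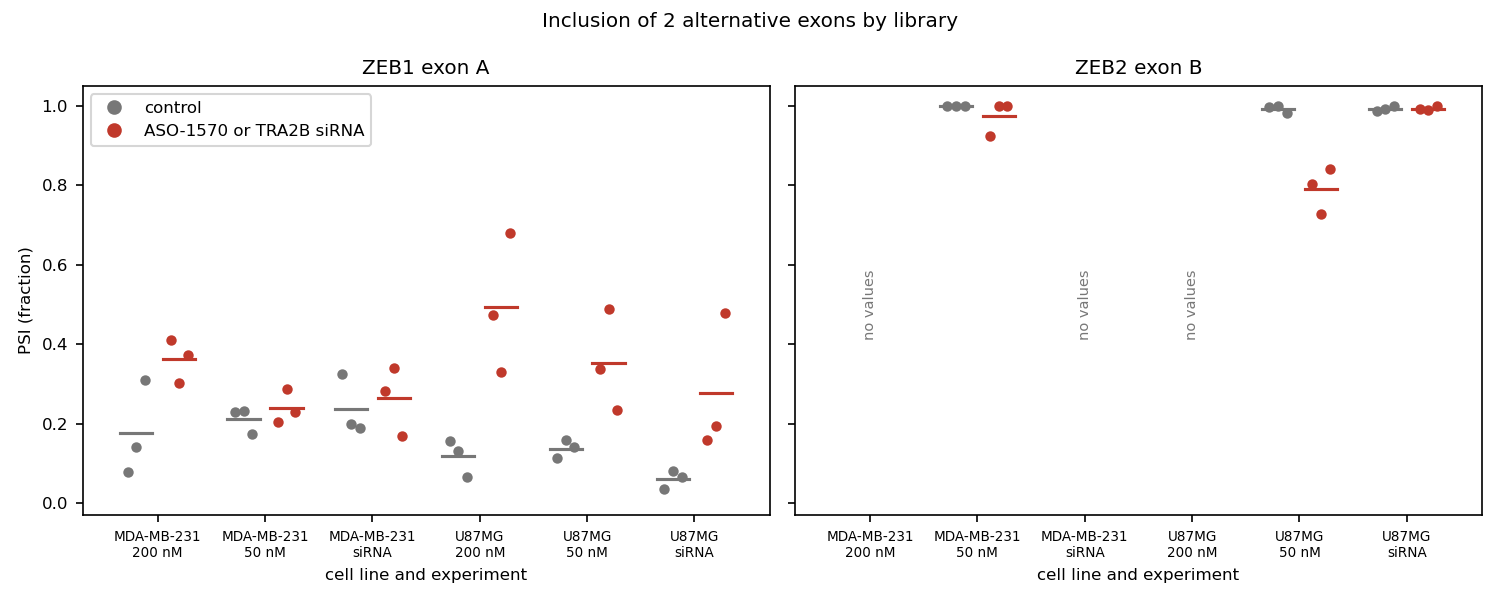
PSI (a fraction) of ZEB1 exon A and ZEB2 exon B in every cell line library with a value, by line and experiment, grey for control and red for treated, with the mean as a bar; "no values" marks groups without any. ZEB1 exon A in U87MG lies at or below 0.159 in every control and at or above 0.159 in every treated library, and ZEB2 exon B falls below 0.85 in the U87MG ASO-1570 libraries at 50 nM only.

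The PDX control tumours carried EPCAM at 391 to 759 CPM and CDH1 at 89.3 to 431 CPM, and VIM, of the mesenchymal side, at 172 to 492 CPM. SNAI2 had no counts in any of the 10 tumours and CDH2 had none in the 5 treated and at most 5 in a control (3 counts, the upper limit that a count of 0 allows, correspond to 0.0188 to 0.0721 CPM, for counting error only), so 8 of the 10 genes were tested. None of the 8 was called with edgeR or with DESeq2, and 0% of the 23812 genes tested were by either (edgeR smallest adjusted p = 0.487, unadjusted p below 0.05 in 2053 genes and in 0 of the 8). The mitochondrial share of counts ran from 17.65% to 75.31% over these tumours and from 1.735% to 3.161% over the cell line libraries. In treated tumours 1 to 5 that share was 22.76%, 38.06%, 64.16%, 75.31% and 64.32%, and in control tumours 17.65%, 38.03%, 29.79%, 26.8% and 53.89%.

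CDH1 was at 330, 164, 65, 48.4 and 72.3 CPM in treated tumours 1 to 5 and at 431, 174, 187, 211 and 89.3 CPM in controls (log2 change -0.68, SE 0.552, edgeR adjusted p = 0.564). EPCAM was at 640, 358, 232, 161 and 243 CPM against 759, 577, 449, 444 and 391 CPM (-0.68, SE 0.363, adjusted p = 0.487), and OCLN at 17.8, 6.39, 4.62, 3.75 and 5.21 CPM against 24.4, 11.2, 13.6, 15 and 7.94 CPM (-0.93, SE 0.445, adjusted p = 0.487). In these 3 genes the 3 treated tumours with a mitochondrial share above 64% were the lowest of all 10. The same held for VIM, at 479, 279, 170, 98 and 131 CPM against 364, 322, 492, 394 and 172 CPM (-0.59, SE 0.428, adjusted p = 0.531). The part of RNA quality in these values was not tested, and with mitochondrial genes removed before the fit none of the 8 genes was called either.

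MARVELD2 and ELF3, which rose in U87MG at both doses, had the smallest log2 changes of the 8 genes in the PDX. MARVELD2 was at 17.2, 11.2, 10, 9.15 and 11.8 CPM against 21.8, 12.1, 11.2, 11.8 and 9.92 CPM (-0.17, SE 0.26, edgeR adjusted p = 0.756). ELF3 was at 47, 48.4, 61.2, 50.9 and 67.1 CPM against 47.8, 52.5, 52, 64.5 and 62.3 CPM (-0.02, SE 0.172, adjusted p = 0.953). ZEB1 was at 0.683, 1.06, 1.77, 2.4 and 0.942 CPM against 0.489, 0.83, 0.917, 0.698 and 1.03 CPM (0.79, SE 0.387, adjusted p = 0.487) and ZEB2 at 0.79, 1.8, 1.82, 10 and 1.96 CPM against 0.834, 0.411, 1.49, 3 and 0.7 CPM (1.34, SE 0.718, adjusted p = 0.487). Both were scarce, and their highest value was in treated tumour 4, the one with the highest mitochondrial share. Markers of fibroblasts summed to 36.32 to 72.09 CPM in treated and 26.15 to 72.62 CPM in control tumours and those of leukocytes to 6.893 to 15.33 and 7.619 to 16.88 CPM. How reads of the mouse host were treated was not given in the sources used here. Of the EPCAM events with a pair of mutually exclusive exons, the one with the smallest limma p was picked. Its PSI was 0.77, 0.646, 0.745, 0.755 and 0.785 in treated and 0.559, 0.532, 0.621, 0.691 and 0.588 in control tumours, with some overlap (0.142, limma adjusted p = 0.763). Its exact two-sided permutation p of 0.0159 is adjusted neither for that choice nor for the other events. Another EPCAM event with exclusive exons changed by -0.177 and an EPCAM cassette exon by -0.164 (limma adjusted p = 0.763 for each).

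**Figure D5:**
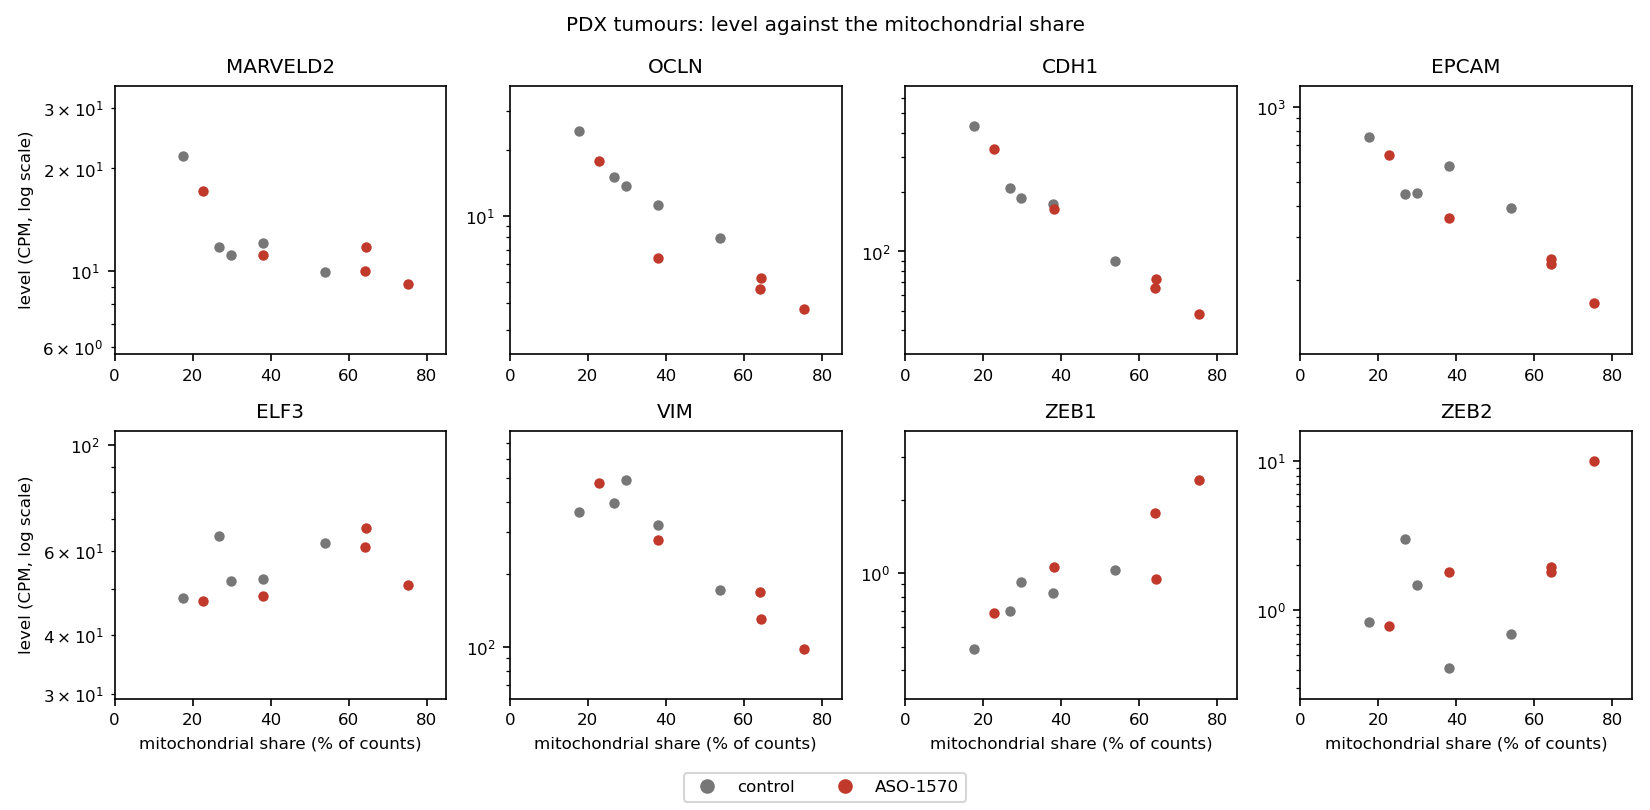
Level of the 8 genes tested in the 10 PDX tumours (CPM, log axis) against the mitochondrial share of each tumour's counts (%), grey for ASO-CTL and red for ASO-1570. CDH1, EPCAM, OCLN and VIM are lowest in the treated tumours above 64%, while ELF3 stays between 47 and 67.1 CPM over the whole range.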

How the data were processed

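RNA-seq libraries of 46 samples in 14 groups were used, from a stranded mRNA kit with paired reads of 151 bases, per the labels' protocols. The authors deposited raw counts per gene. They also deposited percent spliced in per splicing event as a fraction, with no read counts. The submitters' processing notes list FastQC, MultiQC, Trimmomatic, STAR, StringTie and GRCh38 (hg38), without versions. The event caller, the annotation release and the strand setting were not given in the sources used here. Of 60668 gene identifiers, 60295 matched a symbol.

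Each table's groups were fitted together with edgeR 4.0.16 in R 4.3.3 (filterByExpr, TMM, quasi-likelihood test, no block). PSI was tested with limma 3.58.1 on events with complete values and a range of at least 0.05. DESeq2 1.42.0, RLE size factors, no filter, only the groups compared, a replicate block and leaving out each library were tried, and the tests were checked on simulated data. Named list genes were the up to 3 per list and comparison with the smallest p. Outside that rule, RAD17 was named as the neighbour of MARVELD2, and GFAP, S100B, NES, KRT8 and KRT18 as identity markers, with their values seen. The members and lists were chosen with earlier results of these data known. Pairwise chi-square tests found no libraries that agree within sampling noise. Intervals and floors cover counting error only. Some genes that the naming rule picks are not reported here.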

Additional observations from a re-analysis of the deposited data

Results flagged for a closer look

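In the PDX, 1 tumour stood apart from the other 4 of its group in 3 of the 17 groups of values examined, where chance gives about 1 in 20. These were the highest MARVELD2 value among controls (21.8 CPM), the highest OCLN value among treated tumours (17.8 CPM) and the highest ZEB2 value among treated tumours (10 CPM).

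The effect of treatment differed between the lines, by the test of the difference itself with edgeR, in 11 of 30 gene tests. It differed for 23.6% of all genes at 200 nM, 28.2% at 50 nM and 0.527% with the siRNA. At 200 nM the differences in log2 change, MDA-MB-231 minus U87MG, were -5.66 for MARVELD2, -2.84 for CDH1, 1.24 for CDH2 and 0.927 for SNAI2. At 50 nM they were -4.92 for MARVELD2, 0.35 for OCLN, 1.35 for CDH2, 0.283 for ZEB1, 0.561 for ZEB2 and 0.713 for SNAI2. With the siRNA the difference was 0.365 for SNAI2. This call and that of CDH1 at 200 nM were each lost under 11 of 16 alternatives. Those of ZEB1 and OCLN at 50 nM were lost under 5 and 7 of 16.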

How the results depend on the processing

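Of the single values under alternatives other than leaving out a library, 774 kept their direction and side of the threshold, 4 reversed, 14 newly passed and 18 no longer passed. These include an exact permutation test of each splicing event with a mean change of at least 0.10, read at an unadjusted p below 0.05. With 3 libraries against 3 that test cannot pass, so its outcomes in the lines were fixed in advance and say nothing on how firm the results are. With 1 library left out, 1118 kept both, 36 reversed, 9 newly passed and 65 no longer passed. The cause was not tested for any change below. Replicate numbers did not pair the libraries of the lines, where same-numbered libraries correlated at -0.0883 to 0.102. In the PDX, tumours 1 and 5 correlated best with their own number (0.774 and 0.42) and the other 3 did not (-0.209 to -0.097). With the replicate block, the events called fell to 0 and 0 in MDA-MB-231 at 200 and 50 nM, and to 10407 and 2887 in U87MG, with 0 events of the 10 genes in either.

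Fitting only the 2 groups left 5 of the 10 genes called in U87MG at 50 nM and 0 in U87MG with the siRNA. With the siRNA, no filter on low counts gave 982 and 481 genes called (MDA-MB-231, then U87MG) and DESeq2 gave 2670 and 1876. Of the 10 genes, DESeq2 then called 3 and 2, and no filter called 0 in U87MG. The line difference with the siRNA was called for 0 of them with RLE size factors, 0 with no filter and 2 with DESeq2. Without the range filter, 399, 41, 4 and 1 events were called (MDA-MB-231 at 200 nM, at 50 nM and with the siRNA, then U87MG with the siRNA), and 0 events of the 10 genes in U87MG at 200 nM. On the logit scale the counts were 2335 and 447 in MDA-MB-231 at 200 and 50 nM and 6 in U87MG with the siRNA, with 2 events of the 10 genes in U87MG at 50 nM. With 2 values per group allowed, 29, 53 and 7 events were called (MDA-MB-231 siRNA, U87MG siRNA, PDX). The ZEB1 line difference at 200 nM reversed to 0.0262 with RLE size factors, 0.0272 with no filter and 0.0262 with DESeq2, and that of VIM at 50 nM to 0.014 with no filter.

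With 1 library left out, genes called ranged from 4221 to 7787 in MDA-MB-231 at 200 nM, 3696 to 5808 at 50 nM and 796 to 1408 with the siRNA, and from 476 to 779 in U87MG with the siRNA. Of the 10 genes, 1 to 2 were called in MDA-MB-231 and 0 in U87MG with the siRNA, and 0 to 2 for the line difference. Events called ranged from 144 to 2425 in MDA-MB-231 at 200 nM, 21 to 494 at 50 nM and 3 to 11 with the siRNA, from 3567 to 11203 in U87MG at 50 nM, 3 to 12 with the siRNA, and 0 to 1 in the PDX, with 0 to 2 of the 10 genes' events in U87MG at each dose. Log2 changes that crossed 0 ranged in MDA-MB-231 from -0.0234 to 0.259 (MARVELD2), -0.108 to 0.000403 (VIM) and -0.27 to 0.0304 (ZEB2) at 200 nM, and with the siRNA from -0.00849 to 0.0721 (VIM) and -0.0341 to 0.126 (ZEB2). In U87MG with the siRNA they ranged from -0.936 to 0.11 (CDH1), -0.0475 to 0.252 (ELF3) and -0.0596 to 0.0346 (VIM), and in the PDX from -0.107 to 0.0293 (ELF3) and -0.351 to 0.0767 (MARVELD2). Line differences ranged from -0.102 to 0.124 (ZEB1, 200 nM), -0.519 to 0.118 (CDH1, 50 nM), -0.462 to 0.371 (ELF3, 50 nM), -0.0974 to 0.0637 (VIM, 50 nM) and -0.152 to 0.00631 (OCLN, siRNA). PSI changes ranged from -0.0322 to 0.223 (an ELF3 retained intron) in U87MG and -0.239 to 0.071 (a 143-base ZEB1 exon) in MDA-MB-231 at 200 nM, from -0.037 to 0.178 and -0.079 to 0.246 (ZEB1 exons of 49 and 91 bases) in U87MG at 50 nM, and from -0.217 to 0.0453 (a 156-base ZEB1 exon) in U87MG with the siRNA. Depth limits CDH1 and MARVELD2 in U87MG most, with control counts of 0 to 18 in the ASO experiments. It also limits ELF3 in U87MG at 50 nM, with control counts of 8 to 18.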
